A study of Homo sapiens with 12 samples.

Results

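Cells of the human triple-negative breast cancer line MDA-MB-231 that carried a glucocorticoid receptor with alanine in place of the serine Ser134 (S134A-GR) were compared with cells that carried the wild-type receptor (WT-GR), both without hormone. The comparison uses 6 of the series' 12 RNA sequencing libraries, 3 of S134A-GR cells and 3 of WT-GR cells, chosen by their labels for genotype and vehicle treatment. All 6 came from cells kept for 18 h in IMEM with 1% DCC and then given vehicle for 6 h. The other 6 libraries are the same cells given 1 µM dexamethasone (Dex), a synthetic glucocorticoid, for 6 h. They are used here for a second look at the genes found in vehicle. The labels do not say how the receptors were introduced, whether the line's own receptor gene was left intact, or whether each receptor is represented by 1 clone or by pooled cells. An effect of the serine change and any other difference between the lines cannot be told apart in this design. Nor do the labels tell if replicate libraries stem from cultures grown apart; the p-values thus reflect just the spread among these libraries, which may be technical.

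The glucocorticoid receptor, encoded by NR3C1, is a transcription factor that is held in the cytoplasm by chaperones until it binds hormone, and then enters the nucleus to raise or lower target genes. Ser134 lies in its N-terminal transactivation region. This serine differs from the receptor's better known phosphorylation sites in that it is phosphorylated without hormone, by p38 kinase in response to stress, and its phosphorylation promotes binding of 14-3-3 adaptor proteins. The series also names PDK4, which switches off the pyruvate dehydrogenase complex by phosphorylation and thereby holds pyruvate back from the mitochondrial TCA cycle.

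The changed residue is shown here by its reference codon. In GENCODE v29 (GRCh38), NR3C1 lies on the minus strand of chromosome 5, and the codon of Ser134 is chr5:143400438-143400440, in the second exon of most transcripts and within the coding sequence of 13. The 45 coding bases of codons 127 to 141 (chr5:143400417-143400461), 5′ to 3′ on the minus strand with the serine codon in capitals, are identical in these 13 transcripts:
NR3C1 codons 127 to 141: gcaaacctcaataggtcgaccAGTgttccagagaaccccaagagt
The files give 1 value per gene, which cannot show whether this codon was changed, so the values below do not check the genotype labels.

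NR3C1 was lower in S134A-GR cells. Its normalized read counts (reads divided by 1 size factor per library) were 12729, 12139 and 10444 in WT-GR cells and 8516, 8971 and 8959 in S134A-GR cells. All 3 S134A-GR values lay below the lowest WT-GR value. The difference, S134A-GR minus WT-GR, was -0.41 ± 0.07 (SE) on the log2 scale with limma adjusted p = 0.00101. PDK4 (chromosome 7) was also lower, at 449, 538 and 488 in S134A-GR cells against 813, 750.4 and 725 in WT-GR cells, a log2 difference of -0.64 ± 0.09 (SE) with adjusted p = 0.000378. For PDK4, too, the groups did not overlap. Of all tested genes, 65.4% did not overlap and 58.8% had an adjusted p under 0.05.

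The libraries held 56.4 to 86.2 M reads in WT-GR and 85.2 to 96.8 M in S134A-GR cells, with WT-GR replicate 1 the shallowest. The first principal component of the 6 libraries carried 76.2% of the variance and split the libraries by genotype; along the second (8.49%) the WT-GR libraries differed from each other. Within a group, the median SD on the log2 scale came to 0.0909 (WT-GR) and 0.0625 (S134A-GR). Markers of the line were present in every library: VIM, the mesenchymal intermediate filament, lay between 419832 and 426532 in WT-GR and between 425010 and 431198 in S134A-GR cells, and CD44, AXL and SPARC were also high in both. ESR1, the oestrogen receptor, was between 0 and 5.66 in all 6 libraries, and PGR was not analysed here. ERBB2 was at 8864 to 8931 in WT-GR and at 10369 to 10589 in S134A-GR cells, higher by 0.24. Of the line's other listed markers, CAV1, MSN and KRT18 were lower by -0.70, -0.23 and -0.21, and KRT8 differed by 0.05.

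The test covered 15468 genes, those that reached 10 in 3 or more of the 6 libraries, of which 9101 (58.8%) passed the test at an adjusted p under 0.05. Of these, 4415 (28.5%) were higher in S134A-GR cells and 4686 (30.3%) were lower, so a passing test alone is the usual outcome for a gene here. Scaling by library size, fitted with edgeR, gave 5502 higher and 3722 lower, which moves the share of higher genes among calls from 48.5% to 59.6%. This setting shifts the median difference of all genes from 0.01 to 0.08. The 3 values of S134A-GR lay wholly above or below those of WT-GR for 10110 genes (65.4%). Most differences were small: 5419 of the called genes differed by less than 0.5 on the log2 scale. Genes that were called and differed at least 2-fold numbered 1388 (8.97%), 725 higher (4.69%) and 663 lower (4.29%). At the far end the balance changed, since 131 called genes were lower by 4 or more on the log2 scale and 9 were higher by as much. Called genes with at least 4-fold differences numbered 428 (2.77%).

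**Figure D1:**
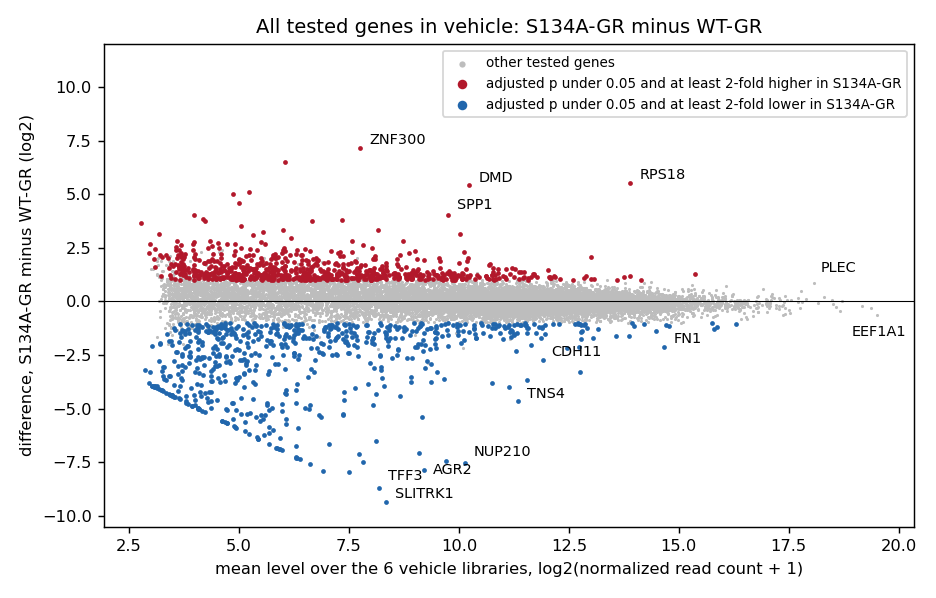
Each point is 1 of the 15468 tested genes, with its mean level over the 6 vehicle libraries on the x axis and its log2 difference, S134A-GR minus WT-GR, on the y axis. The coloured points are called genes that differ at least 2-fold, 725 higher (red) and 663 lower (blue), and the lower ones reach further from 0; the slanting edge at the lower left is set by genes at or near 0 reads in S134A-GR cells.

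The 10 genes with the largest losses included TFF3, AGR2 and MUC5AC, which secretory epithelia are known to express. SLITRK1, a neuronal transmembrane protein, had the largest loss, with 723, 642 and 585 in WT-GR cells and 0 in all 3 S134A-GR libraries. Against a floor of 3 reads per library it was at least 214-fold lower. TFF3, a trefoil peptide that mucous epithelia secrete, was at 518, 521 and 693 in WT-GR cells and at 0, 0 and 1.78 in S134A-GR cells. AGR2, an endoplasmic reticulum protein that mucin folding needs, was at 1134, 1203 and 1185 against 15.1, 0 and 7.13. MUC5AC, a gel-forming mucin, was at 0, 4.05 and 0.891 in S134A-GR cells and uneven among the WT-GR libraries, at 813, 279 and 247. For these 4 genes the adjusted p lay between 1.42e-07 and 9.35e-05, and no S134A-GR value reached the lowest WT-GR value. Being called and having groups without overlap were conditions for a place among these 10 genes. Of all tested genes, 58.8% were called and 65.4% did not overlap.

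The other genes of the 10 lowest were of mixed kinds. NUP210, a membrane glycoprotein of the nuclear pore, was at 2376, 2228 and 2097 in WT-GR cells and at 19.8, 5.07 and 13.4 in S134A-GR cells, 175-fold lower on the group means. HCLS1, a cortactin-like actin regulator known from blood cells, was 172-fold lower (1666 ± 48.5 against 9.70 ± 5.75, SD, n = 3). PNPLA4, a patatin-like lipase, ASRGL1, an asparaginase-like enzyme, and GLB1L2, a member of the beta-galactosidase family, were at 0 in every S134A-GR library. GRAMD1B, a sterol carrier of the endoplasmic reticulum, was at 322 to 379 in WT-GR cells and at 0 in 2 of the 3 S134A-GR libraries, with 1.89 in the third.

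In all, 29 genes had 3 WT-GR values of at least 100 and 3 S134A-GR values under 10. Their means in WT-GR cells ran from 113 to 650.1, and 11 of them were at 0 in all 3 S134A-GR libraries. They included NKX2-1, the transcription factor of lung and thyroid lineages (362, 464 and 440.1 against 0.943, 4.05 and 1.78), and PTN, the growth factor pleiotrophin (233, 268 and 277 against 0.943, 1.01 and 3.56). NYNRIN, at 593, 577 and 462 against 1.89, 8.11 and 7.13, and PADI4, which converts arginine to citrulline in histones, were also among them. Chromosomes 1 and 11, which hold 1566 and 839 of the 15083 tested genes with a position, each held 4 of the 29 genes. No other chromosome held more than 3. In the Dex libraries the 2 groups were again apart, without overlap, for all 29, as they were for 53.2% of all tested genes, and 21 of the 29 met the same thresholds there. The reverse pattern was met by ZNF300 and MAFIP.

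ZNF300, a KRAB zinc finger gene, was at 3.26, 0 and 5.26 in WT-GR and at 418, 422 and 438 in S134A-GR cells, a log2 difference of 7.16 ± 0.6 (SE) with adjusted p = 2.33e-05. DMD, which encodes dystrophin, the link between the actin cytoskeleton and the laminin-binding dystroglycan complex, was 42.9-fold higher (54.9 ± 12.6 against 2356 ± 47.9, SD, n = 3). SPP1, the secreted matrix protein osteopontin, was at 121, 78.2 and 95.8 against 1573, 1693 and 1567, 16.4-fold higher. IGFN1, GPR78, THSD7B and FAM19A2 were higher by 3.12 to 3.74 on the log2 scale. LYPLAL1-AS1 was higher by 3.77, but it is an antisense gene and the sources used here do not say that counting used the strand. RPS18, a ribosomal protein gene, is uncertain: it was at 345, 447 and 1690.0 in WT-GR and at 35829, 29851 and 23541 in S134A-GR vehicle libraries, its log2 difference in Dex was 0.45 with adjusted p = 0.84, and it has near-identical copies in the genome.

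**Figure D2:**
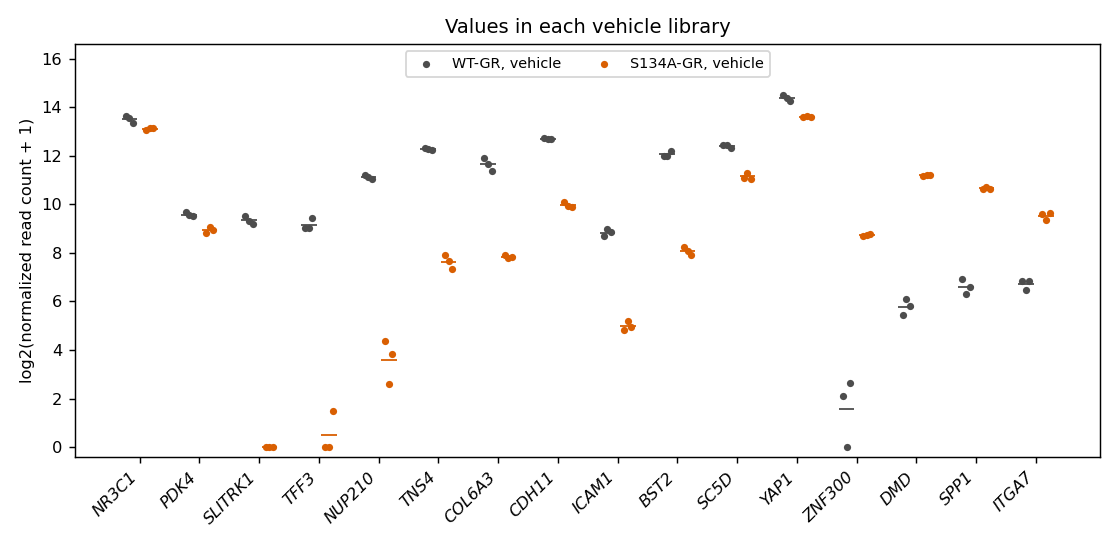
Points are the values of 16 genes in the 3 WT-GR (grey) and 3 S134A-GR (orange) vehicle libraries, on a log2(normalized read count + 1) scale, with a bar at each group's mean on that scale. The 2 groups separate for every gene drawn, from NR3C1, 0.41 lower in S134A-GR cells, to SLITRK1, which sits at 0 in all 3 S134A-GR libraries.

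Most of the gene lists described below had a median difference under 0. Among them were 26 housekeeping genes, with a median of -0.08 (10 lower and 5 higher). Genes of the receptor's own machinery differed in both directions. Of 23 genes for receptors, chaperones and transcriptional cofactors, 4 were higher and 8 lower (17.4% and 34.8%, beside 28.5% and 30.3% of all tested genes), with a median difference of -0.13 against 0.01 for all tested genes. Without S134A-GR replicate 2 or 3 the number higher was 2. FKBP4, the immunophilin that helps carry the receptor to the nucleus, was at 13703, 13621 and 14123 in WT-GR and at 19616, 19049.6 and 19704 in S134A-GR cells, higher by 0.49 ± 0.03 (SE). NR3C2, the mineralocorticoid receptor, which also binds glucocorticoids, was higher by 0.56, and the coactivator NCOA1 was lower by -0.53. FKBP5, the immunophilin that restrains the receptor, had a difference of -0.06 and was not called. HSPA1A, the inducible HSP70, was higher by 1.47 with adjusted p = 0.029. HSPA1A shares reads with near-identical copies, and its call was lost without WT-GR replicate 1 (1.01) and without S134A-GR replicates 2 (1.18) or 3 (1.31).

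Genes that glucocorticoids are known to induce were called in vehicle about as often as all genes. Of 34 such genes 9 were higher and 11 lower (26.5% and 32.4%, beside 28.5% and 30.3% of all tested genes), with a median of -0.04. In Dex 2 were higher and 17 lower with a median of -0.22, where 19.1% of all tested genes were higher and 22.5% lower. The number higher in Dex was 4 without the Dex library WT-GR replicate 3 and 1 without the Dex libraries WT-GR replicate 2 or S134A-GR replicate 1 or 3, while the number lower was between 14 and 18 with each Dex library left out. SAA1, an acute-phase protein, was at 108, 83.5 and 112 in WT-GR and at 19.8, 33.5 and 16.9 in S134A-GR cells. ERRFI1, an inhibitor of the EGF receptor, was lower by -1.30, and TSC22D3, the anti-inflammatory leucine zipper GILZ, by -0.55. KLF15, a regulator of amino acid and lipid use, was higher, at 161, 171 and 184 against 66.8, 47.6 and 80.0, and the clock gene PER1 was higher by 0.58. Several classical targets were not called in vehicle, with differences of 0.06 for SGK1, -0.17 for KLF9 and 0.01 for DUSP1.

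Around PDK4, the kinases of pyruvate dehydrogenase did not move together. PDK3 was lower by -0.67 and PDK1 by -0.46, while PDK2 was higher by 0.42. DLAT, the acetyltransferase core of the complex, was at 8944, 9151 and 8836 in WT-GR and at 4606, 4294 and 4339 in S134A-GR cells, lower by -1.02 ± 0.04 (SE). PDHA1, the catalytic subunit that the kinases phosphorylate, was not called, with a difference of 0.05. Of the 14 genes of the complex, its kinases, phosphatases and the pyruvate carrier, 3 were higher and 6 lower (21.4% and 42.9%). Of all tested genes 28.5% were higher and 30.3% lower. With library-size scaling 5 of the 14 were higher and 6 lower.

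The p38 pathway, which is upstream of Ser134, had 6 higher and 13 lower genes among 25 that include the 14-3-3 family. These were 24% and 52%, beside 28.5% and 30.3% of all tested genes, and the list median was -0.10. With library-size scaling 8 were higher and 11 lower. MAP3K5, the stress kinase ASK1, was at 2333, 2308 and 2079 in WT-GR and at 958, 993 and 1063 in S134A-GR cells. MAP2K6, which phosphorylates p38, was lower by -1.09, while the other such kinase, MAP2K3, was higher by 0.49. Among the p38 kinases MAPK14 was lower by -0.23 and MAPK11 higher by 0.86. GADD45G, which binds the p38 activator MAP3K4, was higher at low levels, with 35.8, 21.1 and 20 against 84.8, 63.9 and 75.7. YWHAQ, YWHAG, YWHAB and YWHAH, which encode 14-3-3 proteins, were lower by -0.70 to -0.28, and YWHAE had a difference of -1.73 that was not called.

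Genes of cholesterol and fatty acid synthesis were lower in S134A-GR cells. Of 28 tested, 22 were lower and 1 was higher (78.6% and 3.57%, beside 30.3% and 28.5% of all tested genes), with a median of -0.52. With library-size scaling 21 were lower and 3 higher. Without WT-GR replicate 3 the number higher was 2. SC5D, a late enzyme of cholesterol synthesis, was at 5561, 5483 and 5037 in WT-GR and at 2197, 2471 and 2133 in S134A-GR cells, 2.36-fold lower. INSIG1, which retains the SREBP activators of this pathway in the endoplasmic reticulum, was lower by -0.94. FASN, the fatty acid synthase, was at 127518, 109449 and 97436 against 63189, 63165 and 63541. The transcription factor SREBF2 was lower by -0.39. PMVK, a mevalonate pathway kinase, was the member that was higher, by 0.33.

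Targets of the stress transcription factor ATF4 and genes of the unfolded protein response were also mostly lower. Among 30 ATF4 targets and amino acid supply genes, 22 were lower and 2 higher (73.3% and 6.67%, beside 30.3% and 28.5% of all tested genes). Their median was -0.34. ASNS, asparagine synthetase, was at 5199, 5186 and 5304 in WT-GR and at 2362, 2327 and 2250.4 in S134A-GR cells, and ATF4 itself was lower by -0.36. Among 24 chaperones and other genes of the unfolded protein response, 19 were lower and 2 higher (79.2% and 8.33%), with a median of -0.31. The number higher was 1 without WT-GR replicate 2 or S134A-GR replicate 1 or 2. HYOU1, an endoplasmic reticulum chaperone, was at 47554, 45234 and 43065 against 23079.5, 22533 and 23028. XBP1, the transcription factor that the sensor IRE1 activates, was lower by -0.77, DNAJC3, an inhibitor of the kinase PERK, by -1.04, and HSPA5, the main chaperone BiP, by -0.12.

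Glycolytic and hypoxia-responsive genes were more often lower than higher. Of 32 genes of glycolysis and glucose transport, 18 were lower and 7 higher (56.25% and 21.9%, beside 30.3% and 28.5% of all tested genes). Their median was -0.19. The 26 housekeeping genes also had more lower (10) than higher (5). LDHA, which turns pyruvate into lactate, was at 216778, 224713 and 224789 in WT-GR and at 150879, 156233 and 152816 in S134A-GR cells, lower by -0.53 ± 0.03 (SE). ENO3, the muscle enolase, was higher by 1.11, while ENO1 was lower by -0.47. Of 25 hypoxia-responsive genes, 15 were lower and 6 higher (60% and 24%). EPAS1, which encodes HIF-2 alpha, was at 11029, 10959.7 and 10294 against 3187, 3265 and 3274, 3.32-fold lower. VEGFA, the angiogenic growth factor, was lower by -0.98, and the carbonic anhydrases CA12 and CA9 by -0.94 and -0.88.

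Mitochondrial genes differed in both directions. Of 38 genes of the TCA cycle and fatty acid oxidation, 16 were lower and 9 higher (42.1% and 23.7%, beside 30.3% and 28.5% of all tested genes). With library-size scaling 14 were lower and 11 higher. Without WT-GR replicate 2 or S134A-GR replicate 1 the number higher was 6. ACADL, an acyl-CoA dehydrogenase of fatty acid oxidation, was low in every library and lower in S134A-GR cells, at 34.2, 28.5 and 36.9 against 11.3, 5.07 and 14.3. SUCLA2, a subunit of succinyl-CoA synthetase, was lower by -0.85. SDHD, a subunit of succinate dehydrogenase, was lower by -0.81 and CPT1A, which admits fatty acids to mitochondria, by -0.60, while CPT1C was higher, at 1629, 1595 and 1616 against 815, 824 and 811. Of 54 nuclear genes of the respiratory chain, 16 were higher and 15 lower (29.6% and 27.8%, near the shares of all tested genes), but 25 were higher and 10 lower with library-size scaling, and without WT-GR replicate 2 the number higher was 10. Their median of -0.00 lay beside that of all genes, 0.01.

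Genes of adhesion and matrix included large differences in both directions. TNS4, a tensin of focal adhesions, was at 5080.4, 4986 and 4863 in WT-GR and at 238, 201 and 162 in S134A-GR cells, 24.8-fold lower. ITGB2, the beta chain of leukocyte integrins, was 9.82-fold lower and NEDD9, a focal adhesion scaffold, 9.22-fold lower. ITGA7, which pairs with ITGB1 as a laminin receptor, was higher, at 769, 659 and 792 against 112, 86.7 and 115. Over 32 integrin and focal adhesion genes, 15 were lower and 8 higher (46.9% and 25%, beside 30.3% and 28.5% of all tested genes). Their median was -0.14.

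Among 27 collagen and laminin chains, 12 were higher and 10 lower (44.4% and 37%, beside 28.5% and 30.3% of all tested genes). COL6A3, the largest chain of collagen VI, was at 3879.6, 3189 and 2661 in WT-GR and at 243, 217 and 225 in S134A-GR cells, while its partners COL6A1 and COL6A2 differed by -0.40 and 0.13. COL4A5 was at 16.3, 20.1 and 17.9 against 0 in every S134A-GR library, at least 5.95-fold lower with a floor of 3 reads per library. The laminin chain LAMA1 was 3.98-fold higher and LAMA4 3.55-fold lower. The epithelial laminin chains LAMA3 and LAMB3 were higher by 0.88 and 0.70. Among 35 matrix proteases and inhibitors 15 were higher and 16 lower (42.9% and 45.7%). MMP9 (117, 128 and 136 against 25.4, 18.2 and 27.6) and MMP1 were lower by -2.39 and -1.71, and the lysosomal protease CTSL and MMP2 were higher by 1.18 and 0.94.

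Cadherins and epithelial genes differed in both directions. CDH11, a mesenchymal cadherin, was at 6869.5, 6585 and 6509 in WT-GR and at 1106, 971 and 959 in S134A-GR cells, 6.58-fold lower. FN1, fibronectin, was lower by -2.10 but uneven in WT-GR cells, at 57099, 41066 and 29774 against 9597, 9197 and 9951. The cadherins CDH2 and CDH3 were higher by 1.05 and 1.29. Of the transcription factors of epithelial-mesenchymal transition, ZEB2 was lower by -1.18, ZEB1 by -0.17 and SNAI1 by -0.23, and SNAI2 was higher by 0.20. The list of 19 genes had 4 higher and 6 lower (21.05% and 31.6%, beside 28.5% and 30.3% of all tested genes). With library-size scaling it had 6 higher and 3 lower. Without S134A-GR replicate 1 or 2 the number lower was 3. OCLN, a tight junction protein, was called at adjusted p = 0.0492 with overlapping groups, and the call was lost without any 1 of WT-GR replicate 1 (-1.33) or 3 (-1.25) or S134A-GR replicate 1 (-1.14) or 2 (-1.24).

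Of 23 keratins and luminal epithelial genes, 12 were lower and 7 higher (52.2% and 30.4%, beside 30.3% and 28.5% of all tested genes). Without WT-GR replicate 2 or S134A-GR replicate 1, and with all 12 libraries in 1 fit, the number higher was 4. Of the 12 lower, 8 differed at least 2-fold. Beside TFF3 these were ELF3, an epithelial transcription factor (153, 190.2 and 174 against 11.3, 14.2 and 16.9), TFF1, KRT17, KRT19, CLDN4, EPCAM and CLDN1. TFF1 and KRT17 were low in every library, at most 35.8 and 26.4 in WT-GR cells, and KRT17 lost its call without WT-GR replicate 2 (-2.42). MUC1, a membrane mucin, and EHF, an epithelial transcription factor, were higher by 1.23 and 1.25. KRT8 was not called, with a difference of 0.05.

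Inflammatory genes and interferon-stimulated genes were more often lower than higher, as were the 26 housekeeping genes (10 lower and 5 higher). ICAM1, the leukocyte adhesion molecule and a classical NF-kB target, was at 407, 498 and 460.1 in WT-GR and at 27.3, 35.5 and 30.3 in S134A-GR cells, 14.7-fold lower. CXCL1 was lower by -2.11, CXCL8 by -0.72 and IL6 by -0.53, while CSF3 was higher by 0.82. Over 24 NF-kB targets, cytokines and chemokines, 11 were lower and 5 higher (45.8% and 20.8%, beside 30.3% and 28.5% of all tested genes). Their median was -0.24. BST2, the membrane protein tetherin that holds back budding viruses, was at 4082, 4094 and 4626 against 303, 268 and 242, 15.8-fold lower. Of 31 interferon-stimulated genes, 17 were lower (54.8%), among them MX2 (-1.71), OAS1 (-1.28) and IFIT1 (-0.85), and 7 were higher (22.6%), among them IFI6 (0.82) and IFI44L (0.74).

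Among 19 antigen presentation genes, 3 were lower and 2 higher (15.8% and 10.5%, beside 30.3% and 28.5% of all tested genes). There were 2 lower and 5 higher both with library-size scaling and without WT-GR replicate 3. NLRC5, the activator of class I genes, was higher, at 6118, 5561 and 6258 against 2669, 2696 and 2898, while B2M, the common light chain of class I molecules, differed by 0.02 and was not called. PSMB9, called lower at adjusted p = 0.0492 from values of at most 25.3, lost its call without any 1 of 5 libraries: WT-GR replicate 1 (-0.98) or 3 (-0.91), or S134A-GR replicate 1 (-0.87), 2 (-1.17) or 3 (-1.28).

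Markers of blood, endothelial and fibroblast cells moved beside these genes in part. Of 15 listed, 12 were measured and 8 tested, 4 lower and 1 higher (50% and 12.5% of those tested, beside 30.3% and 28.5% of all tested genes). Their summed level was 5195 to 5608 in WT-GR and 5725 to 5980 in S134A-GR cells. The endothelial cadherin CDH5 was at 173, 165 and 222 against 13.2, 16.2 and 27.6, and the monocyte marker CD14 at 37.5, 26.4 and 27.4 against 4.71, 2.03 and 7.13. COL1A1 was higher by 0.99, PECAM1 was lower by -0.25 and VWF was not called. The defining marker of blood cells, PTPRC, was at most 9.80 in any library, and the fibroblast markers DCN and LUM were at most 2.11 and 4.23. In bulk RNA, fewer cells of a kind and less RNA per cell cannot be told apart.

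Single ligands and receptors of the EGF receptor family differed in opposite directions. TGFA, a ligand of the EGF receptor, was at 3469, 3383 and 3453 in WT-GR and at 1253, 1309 and 1385 in S134A-GR cells, while EGF was at 231, 229 and 201 against 613, 674 and 724. HBEGF, another ligand of that receptor, was lower by -0.92, and the receptor gene EGFR was not called (-0.11). ERBB3 was higher by 0.91. ERBB4 was lower by -1.32 at values of at most 35.8, and the call was lost without WT-GR replicate 1 (-1.11) or 2 (-1.30) or S134A-GR replicate 1 (-0.96). Over 26 genes of the EGF receptor family, ephrins and their receptors, 8 were higher and 8 lower, 30.8% each, near the shares of all tested genes (28.5% and 30.3%). The number higher was 5 without S134A-GR replicate 2.

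In the TGF-beta and BMP pathway, 16 of 31 genes were lower and 6 higher (51.6% and 19.35%, beside 30.3% and 28.5% of all tested genes). TGFB2 was lower by -1.03, the co-receptor TGFBR3 by -1.10, the activin subunit INHBB by -1.57 and SMAD3 by -0.45. BMP2, a bone morphogenetic protein, was higher at low levels, with 171, 187 and 159 against 45.6, 41.2 and 35.8. Of 22 genes of the YAP and TEAD pathway, 15 were lower and 2 higher (68.2% and 9.09%). YAP1 itself was at 23071, 21277 and 19451 in WT-GR and at 12334, 12769 and 12416 in S134A-GR cells, and its targets CYR61 and CTGF were lower by -0.73 and -0.52. Of 29 AP-1 and immediate-early genes, 12 were lower and 8 higher (41.4% and 27.6%), FOSL1 at -0.42 and FOS at 0.55. Without S134A-GR replicate 1 the number higher was 5. The calls of FOSB (1.01) and EGR2 (0.66) were lost without some of the libraries: FOSB without S134A-GR replicate 1 (0.95) or 3 (0.93), and EGR2 without WT-GR replicate 2 (0.54) or S134A-GR replicate 1 (0.59) or 2 (0.66).

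Proliferation genes differed in both directions. Of 36 DNA replication genes, 11 were higher and 12 lower (30.6% and 33.3%, near the shares of all tested genes), and 14 higher and 9 lower with library-size scaling. RRM2, a subunit of ribonucleotide reductase, was lower by -0.72, and the replication factors GINS3 and ORC6 were higher by 0.57 and 0.50. Of 34 mitotic genes, 5 were higher and 11 lower (14.7% and 32.35%, beside 28.5% and 30.3% of all tested genes). They were 12 higher and 6 lower with library-size scaling, and 5 higher and 7 lower with all 12 libraries in 1 fit. HMMR, a spindle and hyaluronan-binding protein, was at 1053, 1071 and 1053 against 379.9, 455 and 335, while PLK1, CDC20 and TOP2A were not called. Among 30 cell cycle brakes and apoptosis genes 15 were lower and 6 higher (50% and 20%). The survival gene BCL2A1 was 5.67-fold lower and the death ligand TNFSF10 3.14-fold lower, and CCND2, cyclin D2, was 3.78-fold higher (245 ± 68.8 against 925 ± 69.7, SD, n = 3).

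The most abundant transcripts also differed. EEF1A1, a translation elongation factor that has near-identical copies, was at 868124, 905438 and 930949 in WT-GR and at 589352, 586075 and 596514 in S134A-GR cells. PLEC, the cytoskeletal linker plectin, was at 232727, 184809 and 168286 against 350430.0, 337961 and 377006. The glycolytic genes GAPDH and PKM were lower by -0.29 and -0.19, and the serine protease PRSS23 by -1.06, while FTL, the ferritin light chain, was higher by 0.47. Of 58 cytosolic ribosomal protein genes, 27 were lower and 4 higher (46.55% and 6.9%, beside 30.3% and 28.5% of all tested genes). They were 15 lower and 12 higher with library-size scaling. Without WT-GR replicate 3 they were 26 lower and 13 higher, and with library weights 29 lower and 11 higher. Of 26 housekeeping genes, 10 were lower and 5 higher (38.5% and 19.2%), and 6 lower and 7 higher with library-size scaling. POLR2A, the largest subunit of RNA polymerase II, was called higher (0.39) with overlapping groups, and that call was lost without WT-GR replicate 2 (0.34) or 3 (0.27) or S134A-GR replicate 1 (0.37), 2 (0.45) or 3 (0.37). ACTB was not called (0.07).

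**Figure D3:**
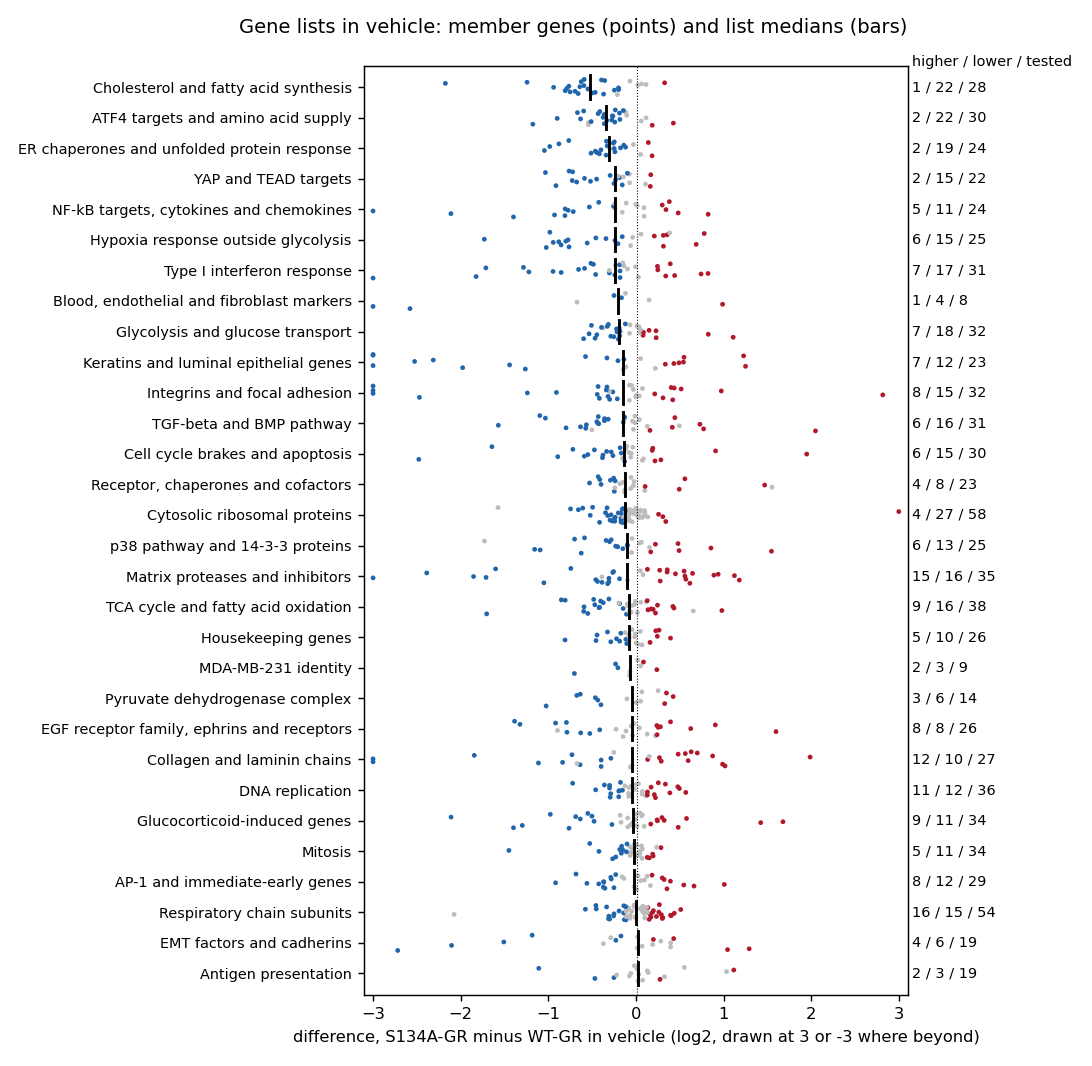
Rows are the 30 gene lists, points are their tested genes with the log2 difference in vehicle on the x axis (red higher, blue lower, grey not called) and black bars are list medians. The numbers at the right count genes higher, lower and tested, and the medians run from -0.52 for cholesterol and fatty acid synthesis to 0.02 for antigen presentation, with the dotted line at the median of all genes, 0.01.

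Neighbouring genes often differed with the same sign. Of 8938 called genes with a RefSeq gene position (GRCh38), 74.8% had the sign of the median of their 50 nearest tested neighbours. This share was not computed for the genes that were not called. On chromosome 13, 73.6% of 269 tested genes were lower and 4.46% higher, with a median of -0.53. On chromosome 11, 60.4% of 839 were lower (median -0.34), and on chromosome 2, 57.2% of 988 (median -0.30). In the other direction, 61.5% of 618 genes of chromosome 9 were higher (median 0.28), as were 54% of 687 of chromosome 16 (median 0.24). For chromosome 13 the per-library medians were -0.54, -0.53 and -0.52 in S134A-GR and between -0.02 and 0.02 in WT-GR libraries. Chromosome 19 had the widest spread within groups, with WT-GR medians from -0.03 to 0.05 beside a difference of 0.09. In vehicle the groups overlapped on chromosomes 15, 17 and 20 and on no other. In Dex the median difference changed sign on chromosome 19 (-0.05) and on chromosome 17 (0.04 in vehicle, -0.03 in Dex). The other chromosomes kept their sign, with chromosome 13 at -0.40 in Dex. DNA was not analysed here, and the cause of this pattern was not tested.

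**Figure D4:**
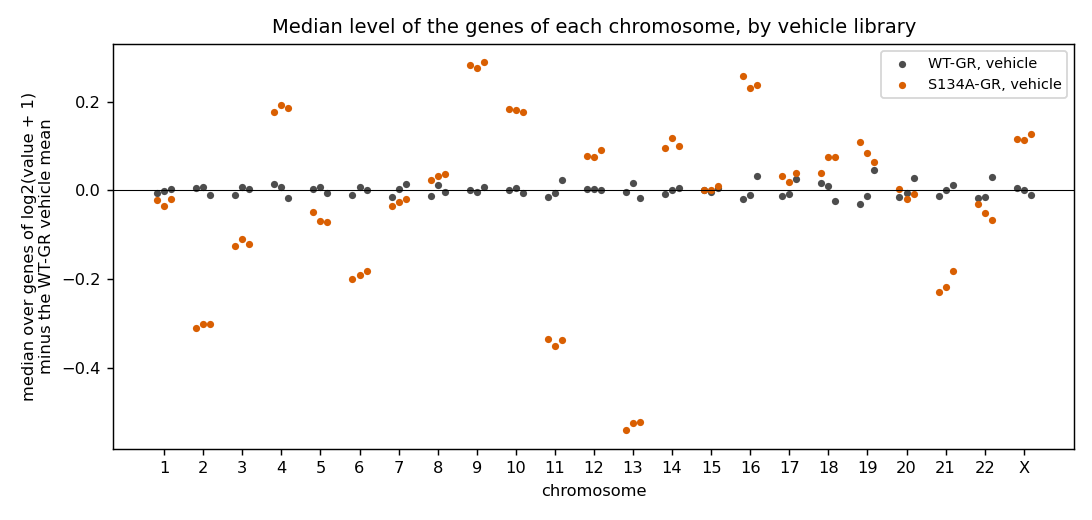
The y axis gives, for each chromosome on the x axis, the median over its tested genes of log2(value + 1) minus the WT-GR vehicle mean, with 1 point for each WT-GR (grey) and S134A-GR (orange) vehicle library. S134A-GR libraries sit lowest on chromosome 13, near -0.53, and highest on chromosome 9, near 0.28, with little spread among the 3.

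Within chromosomes the differences came in blocks. The lowest window of 51 neighbouring genes was chr11:93735110-108147603, with a median of -0.76 and 41 genes lower against 1 higher. YAP1, BIRC3 and MMP1 lie in this block, and the median of the neighbours of YAP1 (-0.77) was as low as YAP1 itself (-0.76). DLAT and SDHD lie further along chromosome 11 among neighbours with a median of -0.60, and NDUFC2, lower by -0.58, has neighbours at -0.63. On chromosome 13, chr13:39655627-49936340 had a median of -0.62 with 47 genes lower and 1 higher. Windows with the highest medians lay on chromosome 8, at 0.69 with PLEC among neighbours at 0.59, and at chr9:136547842-137552555, at 0.64. With wider windows the order changed, and the highest median was on chromosome 9 (0.49), followed by chromosome 8 (0.45). For comparison, the 5th and 95th percentiles over all windows were -0.41 and 0.31.

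The gene lists were also set against the neighbours of their genes. For cholesterol and fatty acid synthesis, 27 of 28 genes were below the median of their own neighbours, which had a median of 0.02 over the list. For ATF4 targets 26 of 28 positioned genes were below their neighbours, and for the unfolded protein response 23 of 24. Over all 15083 positioned genes 49.99% were below. Among the other 27 lists the share below ran from 43.4% for the respiratory chain to 82.8% for the cytosolic ribosomal proteins, with housekeeping genes at 73.1%. The neighbours of the YAP and TEAD genes had a median of -0.24, equal to that of the list. For single genes of large loss, whose size alone puts them below any window, the neighbours of TNS4 had a median of 0.03, those of TFF3 -0.19, those of CDH11 0.28 and those of SLITRK1, on chromosome 13, -0.59.

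The genotype difference was looked at again in the 6 Dex libraries, whose gene names were assigned by line order. There 6448 genes were called (41.7%), and for 53.2% of tested genes the groups were apart without overlap. Of the 9101 genes called in vehicle, 5417 were called in the same direction in Dex, which is 59.5% of the vehicle calls and 84% of the Dex calls, and 14 were called in the opposite direction. Of the 1388 genes that differed at least 2-fold in vehicle, 1054 (75.9%) were called in the same direction in Dex and 0 in the opposite one. Their median size was 1.49 in vehicle and 1.43, with the sign taken from vehicle, in Dex. The difference between the treatments itself was called for 66 of 15468 genes (0.427%), of which 11 were among the 1388.

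NR3C1 and PDK4 were lower in S134A-GR cells in Dex too, by -0.27 and -0.73. DMD, SPP1 and ZNF300 were higher in Dex by 5.87, 3.90 and 7.88, and TFF3, AGR2 and NUP210 were lower by -8.58, -9.46 and -7.43. SC5D was lower by -1.06 and BST2 by -4.51. By list, cholesterol and fatty acid synthesis had 19 of 28 genes lower and 0 higher in Dex, ATF4 targets 19 and 1 of 30, and the unfolded protein response 13 and 1 of 24, where 22.5% of all tested genes were lower and 19.1% higher. With each Dex library left out in turn, these lists had 19 to 22, 17 to 21 and 12 to 15 genes lower, and at most 2 higher. LCN2, higher in vehicle from low values (4.89, 4.23 and 5.26 against 20.7, 15.2 and 16.9), was not called in Dex (0.98, adjusted p = 0.095). The difference between treatments for LCN2 had adjusted p = 0.5, so no change of its genotype difference with Dex was detected.

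**Figure D5:**
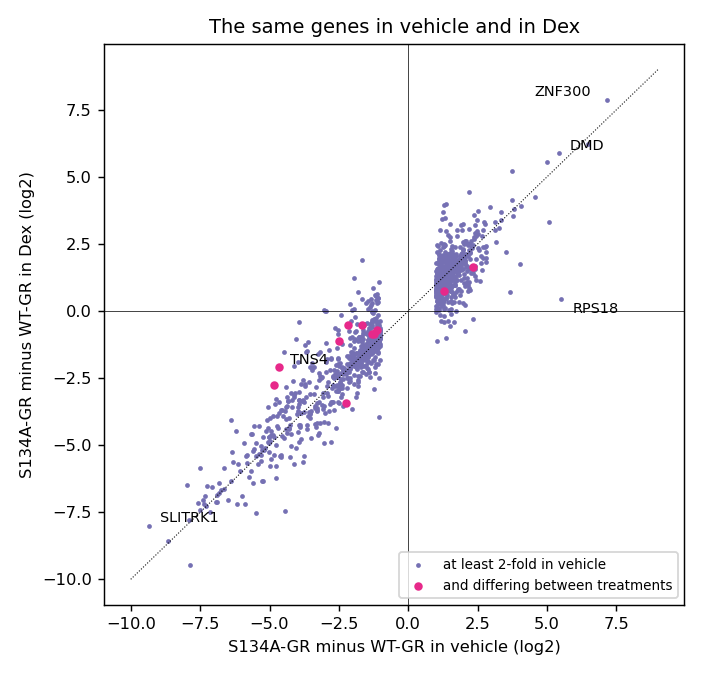
Points are the 1388 genes called and at least 2-fold different in vehicle, with the log2 difference S134A-GR minus WT-GR in vehicle on the x axis and in Dex on the y axis, and the dotted line marks equal differences. Most points lie near that line on both sides of 0; the 11 genes whose difference was called as changed between treatments are in pink, TNS4 among them, and RPS18 is far from the line.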

How the data were processed

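RNA from 6 vehicle libraries, and 6 Dex libraries for the repeat, was made into TruSeq libraries and read on a HiSeq instrument, per the labels' protocols. FastQC 0.11.7, featureCounts of Subread, DESeq2 1.22.2 and hg38 are named, without role or order, in the submitters' processing notes; for the aligner and annotation the sources used here give no name. The deposited files hold 1 normalized signal value for each of 19907 genes. The values show what it is: in each library 100% were whole multiples of 1 step within 0.01 reads, reads counted per gene and divided by 1 factor per library. Among counts of 1 to 20 reads, 58.9 to 61.5% were even in the vehicle libraries, so reads may not be independent fragments. The Dex files list more names than values, and only 8 lines carry the same name as in the vehicle files; Dex values were given the vehicle names by line order (r = 0.982 to 0.989 with the vehicle mean across genes, against -0.00564 to -0.00357 by the names as deposited).

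Genes were tested with limma 3.58.1 in R 4.3.3, using its mean-variance trend on log2(value + 1), with a value of at least 10 required in at least 3 of 6 libraries, two-sided p-values and Benjamini-Hochberg adjustment over all tested genes at 0.05. Differences on this scale understate those of low genes. Dex libraries were fitted alike, and the difference between treatments over 12 libraries. edgeR 4.0.16 and DESeq2 1.42.0 on the recovered reads were alternatives, and edgeR with TMM called 9113 genes. No 2 libraries of a group agreed within sampling noise. Of 871 listed symbols, 8 were found under another symbol and 13 were not found; 823 were tested. The comparison and lists were chosen with earlier results of these data known. Genes named are the 10 highest and 10 lowest without overlap and with a mean of at least 100, those present in 1 genotype only, up to 4 called members per list, NR3C1 and PDK4, and the 10 with the largest difference in value; other list members were named after their values were seen. Some members of the lists are counted but not reported here by name.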

Additional observations from a re-analysis of the deposited data

Results flagged for a closer look

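TNS4, the tensin that was lower in S134A-GR cells, is listed here because its genotype difference was itself different in vehicle and in Dex. It was -4.64 on the log2 scale in vehicle and -2.10 in Dex, and the difference of these differences was -2.55 ± 0.15 (SE), with limma adjusted p = 4.68e-06 over 12 libraries. In vehicle WT-GR cells had TNS4 at 4976 ± 109 and S134A-GR cells at 200.4 ± 38.2; with Dex the values were 2871 ± 157 and 671 ± 34.4 (SD, n = 3). ERRFI1, named above among glucocorticoid-induced genes, also had a genotype difference that was called as changed between treatments. It was -1.30 in vehicle and -0.86 in Dex, with limma adjusted p = 0.0127 for the change. The Dex values carry names assigned by line order.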

How the results depend on the processing

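The count of 9101 genes for genotype in vehicle ranged from 8061 to 11214 over the alternative tools, scalings, pseudocounts, filters and designs that keep all libraries, and from 7760 to 9386 with each library left out in turn (lowest without S134A-GR replicate 1); it was 7795 without replicate 1 of both groups, a setting chosen after seeing the data. Same-numbered libraries did not deviate together (r = 0.000907, -0.0242 and -0.0534), so the numbers are not treated as pairs; with the replicate block 8398 genes were called in vehicle, 5043 in Dex, and 25 in place of 66 for the difference between treatments. In Dex, the count of 6448 ranged from 4550 to 7033 with each library left out, and the shared calls from 4086 to 5425; with the names as deposited these counts were 3274 and 1031. With wider windows along the chromosomes the lowest median stayed on chromosome 11 (-0.72) and the highest moved from chromosome 8 to chromosome 9 (0.49), and with a value of at least 50 required the highest was 0.63. Relative to their 50 neighbours, a measure chosen after seeing the data, YAP1 (0.0036) and NDUFC2 (0.052) changed sign. PSMB9 and ERBB4 were no longer called with the replicate block, the latter at the same difference of -1.32, and PECAM1 (-0.17) and KRT18 (-0.13) were not called with library-size scaling. Genes that did not reach 10 in 3 libraries entered no test outside the fit with no filter, and nothing is said of them at this depth.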
